A study of Mus musculus with 18 samples.

Results

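Progress through the G1 phase of the cell cycle depends on the kinases CDK4 and CDK6, and the 10 genes described here set how much of that activity a cell can have. They are the CIP/KIP inhibitors Cdkn1a, Cdkn1b and Cdkn1c, the INK4 inhibitors Cdkn2b and Cdkn2c, the D-type cyclins Ccnd1, Ccnd2 and Ccnd3, and the kinases Cdk4 and Cdk6. They were chosen by name for these roles, and all 10 were found among the 23420 gene rows of the count table. D-type cyclins bind CDK4 or CDK6, and the active kinases phosphorylate the retinoblastoma protein, which then releases E2F factors that drive S-phase genes. INK4 proteins bind CDK4 and CDK6 and keep D-type cyclins away from them, whereas CIP/KIP proteins bind whole cyclin-CDK complexes and restrain CDK2 as well. Several of these proteins are short-lived substrates of the proteasome, so that their mRNA, which is what was measured here, is only a part of their control.

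The RNA came from NIH-3T3 cells, an immortalized line of mouse embryonic fibroblasts, grown in DMEM with 10% FBS. Wild-type (WT) cells and a line in which Nrf1 (gene Nfe2l1), a transcription factor of the proteasome genes, had been knocked out with CRISPR/Cas9 (Nrf1KO) were compared. Each line received the vehicle DMSO, or carfilzomib (CFZ), an irreversible proteasome inhibitor, at 200 nM for 6 h or for 24 h. The labels give no duration for DMSO, so the same DMSO libraries served both times. Each of the 6 groups held 3 libraries, 18 in all. With 1 line per genotype, genotype and line cannot be told apart, and whether the knockout line was 1 clone is not given in the sources used here. The samples are called biological replicates, but nothing says how the cultures were separated, so p-values measure the spread between these samples.

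The libraries held 8333148 to 23917081 counts, with a median of 14419832. Levels are given as CPM (counts of a gene scaled to a fixed library total) after TMM scaling, and genes were tested with edgeR's quasi-likelihood test over 11762 genes, with a call at a Benjamini-Hochberg adjusted p under 0.05. Nfe2l1 itself was at 448 ± 9.87 CPM (SD, n = 3) in WT and 180.1 ± 5.27 CPM in Nrf1KO cells with DMSO, at 642 ± 12.4 against 419 ± 7.19 CPM after 6 h of CFZ, and at 565 ± 13.4 against 204 ± 4.45 CPM after 24 h, so that it was lower in Nrf1KO cells in every condition but not absent. All 9 fibroblast markers examined were counted, with a summed level of 8220 to 35900 CPM. That sum fell from 33000 to 35900 CPM with DMSO to 8220 to 8510 CPM at 24 h in WT cells, and from 27600 to 33900 CPM to 11100 to 13100 CPM in Nrf1KO cells. All 9 were called lower at 24 h in WT cells, beside 40.5% of all tested genes. In Nrf1KO cells 7 were lower and 1 was higher, beside 41.1% and 44.4% of all tested genes. There Vim was at 3398 CPM with DMSO and 3451 CPM at 24 h, and Pdgfra at 264 and 284 CPM. The part of these changes in the results at 24 h was not tested. Summed markers of epithelial, endothelial, leukocyte and muscle cells reached at most 13 CPM, and Epcam, Krt8, Krt18, Pecam1, Kdr, Cd3e, Myod1 and Myog were below 1 CPM in every library. The remaining markers were counted at low levels. Cdh1 averaged 6.12 CPM in WT and 11.6 CPM in Nrf1KO cells with DMSO. After 24 h of CFZ, Cdh5 and Cd68 averaged 2.955 and 3.21 CPM in WT and 3.40 and 4.48 CPM in Nrf1KO cells, above their DMSO levels. Ptprc averaged 0 CPM in each WT group and 0.891 to 1.22 CPM in the Nrf1KO groups, and Des averaged at most 2.02 CPM. In RNA from whole cultures, fewer cells of a kind and less RNA per cell cannot be told apart.

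Of the 10 genes, 8 were counted well enough to be tested. In WT cells 1 of them was higher and 6 were lower after 6 h of CFZ, where 35.6% of all tested genes were higher and 36.2% lower. At 24 h 1 was higher and 7 were lower, against 43.2% and 40.5% of all genes. In Nrf1KO cells 2 were higher and 5 lower at 6 h, beside 34.5% and 35.0% of all genes. At 24 h 1 was higher and 7 were lower in Nrf1KO cells, beside 44.4% and 41.1% of all genes. Taken over the 8 genes, the middle log2 fold change (median) was -0.57 and -1.19 in WT cells at 6 h and 24 h, and -0.49 and -0.64 in Nrf1KO cells, whereas that of all tested genes lay between -0.02 and 0.03 in these comparisons. The gene called higher in both lines at both times was Cdkn1a. Both lines were set against their own DMSO libraries, which the 6 h and 24 h comparisons share.

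**Figure D1:**
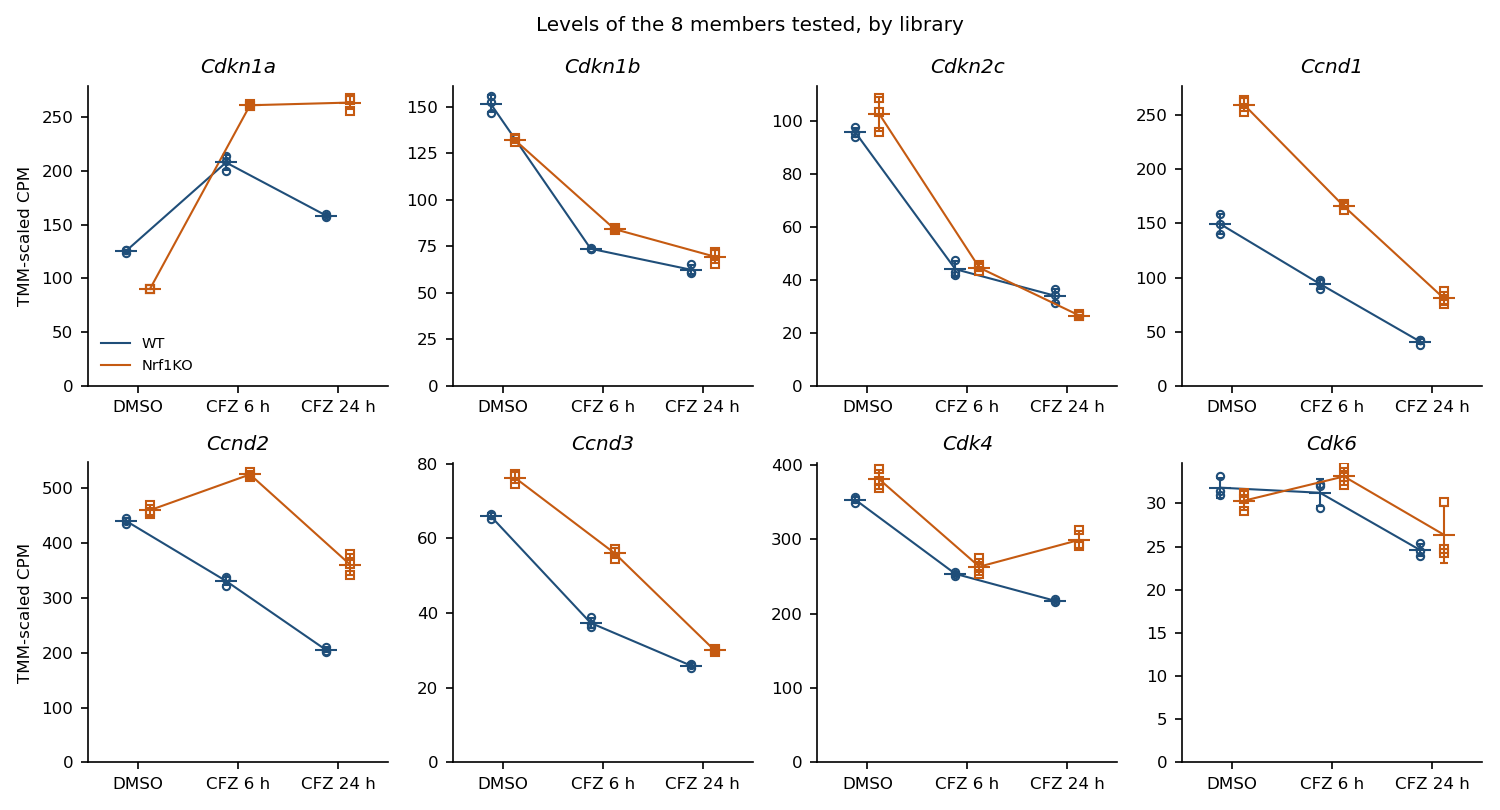
TMM-scaled CPM (vertical axes, each from 0) of the 8 tested genes in DMSO, CFZ 6 h and CFZ 24 h. Blue circles are the 3 WT libraries, orange squares the 3 Nrf1KO libraries, and horizontal ticks with bars the mean ± SD. Cdkn1a rises with CFZ in both lines and ends at 263 CPM in Nrf1KO and 158 CPM in WT cells, while Ccnd1 declines in both lines and is higher in Nrf1KO cells throughout.

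Cdkn1a, which encodes p21, a CIP/KIP inhibitor known as a target of p53, lies at chr17:29090976-29100727 on the plus strand (GRCm38, GENCODE M21). In WT cells it was at 126, 126 and 124 CPM with DMSO, at 209, 200.2 and 214 CPM after 6 h of CFZ, and at 158, 157 and 160 CPM after 24 h. In Nrf1KO cells the corresponding levels were 90.2, 90.1 and 90.2 CPM, then 260.3, 262 and 260.5 CPM, then 268, 266 and 256 CPM. Every CFZ library lay above every DMSO library of its line. With DMSO the Nrf1KO libraries were the lowest of all 18, and with CFZ they were the highest, with no overlap between the lines at any time.

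The rise of Cdkn1a in WT cells was 1.66-fold at 6 h (log2 0.73, SE 0.033, adjusted p = 6.6e-19) and 1.26-fold at 24 h (log2 0.34, adjusted p = 7.6e-11). The rise in Nrf1KO cells was 2.89-fold at 6 h (log2 1.53, SE 0.034, adjusted p = 3.3e-27) and 2.92-fold at 24 h (log2 1.55, adjusted p = 3.3e-28). The level thus came down between 6 h and 24 h in WT cells (log2 -0.39, adjusted p = 3.2e-12), whereas no change was called in Nrf1KO cells (log2 0.01, SE 0.031, adjusted p = 0.70). Against WT, Nrf1KO cells had 0.719 times as much Cdkn1a RNA with DMSO, 1.26 times as much at 6 h and 1.66 times as much at 24 h, each with an adjusted p of 1.8e-10 or less. Of the exonic bases annotated for Cdkn1a, 7.68% are also annotated as exonic on the opposite strand, in AC167363.2, and whether the counting used strand is not stated.

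Because Cdkn1a and Cdkn1b, which belong to the same inhibitor family, moved in opposite directions, the 250 bases before their transcription starts are shown, from RefSeq promoter windows on GRCm38.p6. Windows were given for 7 of the 10 genes, 10 windows in all, each reaching from 250 bases before to 50 bases after a start. In these lines capitals mark Sp1 boxes (GGGCGG on either strand), except that in the first line they mark a stretch of 32 bases holding a pair of p53 half-sites.
Cdkn1a, upstream start, chr17:29090729-29090978, plus strand: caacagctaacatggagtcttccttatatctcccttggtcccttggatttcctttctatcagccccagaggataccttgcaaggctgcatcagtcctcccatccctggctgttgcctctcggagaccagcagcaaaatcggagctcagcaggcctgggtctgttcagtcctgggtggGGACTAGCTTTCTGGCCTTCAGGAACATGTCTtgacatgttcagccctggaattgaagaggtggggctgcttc
Cdkn1a, downstream start, chr17:29093519-29093768, plus strand: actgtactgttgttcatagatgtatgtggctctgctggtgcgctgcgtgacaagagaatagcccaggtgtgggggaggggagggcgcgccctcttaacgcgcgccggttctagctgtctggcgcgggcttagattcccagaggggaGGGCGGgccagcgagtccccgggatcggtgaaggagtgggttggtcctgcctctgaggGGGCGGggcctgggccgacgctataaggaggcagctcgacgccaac
Cdkn1b, chr6:134920151-134920400, plus strand: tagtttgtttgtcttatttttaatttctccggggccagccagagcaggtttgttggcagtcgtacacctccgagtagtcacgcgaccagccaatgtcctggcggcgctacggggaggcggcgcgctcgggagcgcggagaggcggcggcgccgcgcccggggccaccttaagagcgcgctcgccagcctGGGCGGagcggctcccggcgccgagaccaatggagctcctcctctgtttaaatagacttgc
The window of the upstream Cdkn1a start held none of the motifs searched by letters (the antioxidant response element core TGACNNNGC, the C/EBP-ATF element TGATGNAA, the E-box CACGTG, the E2F sites TTTCCCGC and TTTGGCGC, the Sp1 box, the cyclic AMP response element TGACGTCA and the AP-1 site TGANTCA). The p53 response element, taken as a pair of half-sites of the usual consensus at most 13 bases apart, was looked for only after the windows had been seen. It matched in this 1 of the 10 windows and in 24 of the 32851 windows of all genes (0.0731%), starting 73 bases before the start. Sp1 boxes, which 35.7% of all windows hold, were in the window of the downstream Cdkn1a start 2 times and in that of Cdkn1b 1 time. These are matches of letters, and nothing was measured here about binding to them.

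Cdkn1b encodes p27, a CIP/KIP inhibitor that accumulates in quiescent cells, and lies at chr6:134920401-134925513 on the plus strand. In WT cells it was at 156, 147 and 152.5 CPM with DMSO, at 73.4, 74.0 and 73.7 CPM after 6 h of CFZ, and at 61.4, 60.6 and 65.3 CPM after 24 h. The Nrf1KO levels were 133, 133 and 131 CPM, then 84.8, 83.8 and 84.0 CPM, then 65.4, 72.1 and 70.9 CPM. All CFZ libraries were below all DMSO libraries. The order of the lines turned over, with WT above Nrf1KO in DMSO and Nrf1KO above WT at both times of CFZ, without overlap. At 24 h this was by a narrow margin, since Nrf1KO replicate 1 was at 65.42 CPM and WT replicate 3 at 65.33 CPM. The difference between the lines there was 0.15 on the log2 scale (SE 0.043, adjusted p = 0.0019). Cdkn1b fell by 1.04 on the log2 scale at 6 h and by 1.28 at 24 h in WT cells (adjusted p = 3.9e-21 and 7.1e-24). In Nrf1KO cells it fell by 0.65 and by 0.93 (adjusted p = 1.4e-15 and 1.6e-20). No exon of another gene overlaps Cdkn1b in the annotation.

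Cdkn1c encodes p57, the third CIP/KIP inhibitor, from an imprinted locus, and Cdkn2b encodes p15, an INK4 inhibitor known to respond to TGF-beta. Cdkn1c (chr7:143458339-143461050, minus strand) had 1 count in all 18 libraries together, in WT DMSO replicate 2. Cdkn2b (chr4:89306299-89311039, minus strand) had 0 counts in all 18. A count of 0 allows up to 3 counts, which corresponds to 0.116 to 0.36 CPM depending on the library and covers counting error only. Neither gene passed the filter on low counts, and no fold change is given for them. Cdkn2a, which encodes p16 and ARF and is not among the 10 genes, also had 0 counts in every library, as did E2f6, a gene of the lists below. A gene that is silent, absent from the genome of this line or missed in the counting of reads cannot be told apart by a count of 0.

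Cdkn2c encodes p18 and was the INK4 member counted, at chr4:109660876-109667189 on the minus strand. Its WT levels were 97.5, 95.6 and 93.9 CPM with DMSO, 42.9, 41.8 and 47.5 CPM after 6 h of CFZ, and 34.2, 31.2 and 36.6 CPM after 24 h. Its Nrf1KO levels were 103, 109 and 95.9 CPM, then 45.7, 44.9 and 43.3 CPM, then 26.4, 26.4 and 27.0 CPM. The lines overlapped in DMSO and at 6 h, and at 24 h all 3 Nrf1KO libraries were below all 3 WT libraries. With DMSO no difference between the lines was called (log2 0.09, SE 0.045, adjusted p = 0.076), but it was with library size alone (0.14, adjusted p = 0.00861) and with some other settings. The fall at 24 h was to 0.355 of the DMSO level in WT cells (log2 -1.50, SE 0.054, adjusted p = 6.5e-22) and to 0.260 in Nrf1KO cells (log2 -1.94, SE 0.055, adjusted p = 5.8e-25). At 6 h Cdkn2c had fallen by 1.12 in WT and by 1.19 in Nrf1KO cells on the log2 scale (adjusted p = 1.8e-18 and 7.6e-19).

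**Figure D2:**
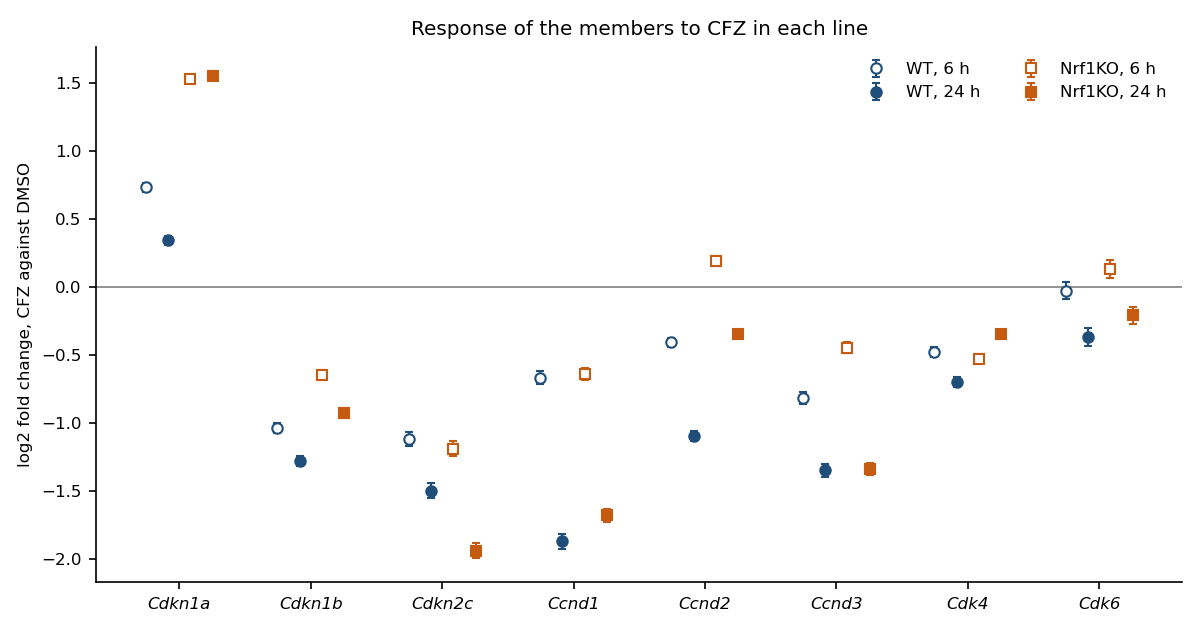
Log2 fold change of CFZ against DMSO (vertical axis) for the 8 tested genes, with bars of ± 1 standard error from the edgeR fit. Blue circles are WT and orange squares Nrf1KO cells, open at 6 h and filled at 24 h. Cdkn1a is above 0 in all 4 comparisons, and Ccnd2 is above 0 only in Nrf1KO cells at 6 h (0.19).

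Among the D-type cyclins, which are induced by growth factors and carry that signal to the kinases, Ccnd1 encodes cyclin D1 and lies at chr7:144929931-144939925 on the minus strand. In WT cells it was at 141, 159 and 149 CPM with DMSO, at 89.2, 95.2 and 98.0 CPM after 6 h of CFZ, and at 42.4, 37.8 and 42.7 CPM after 24 h. Nrf1KO cells had 264, 262 and 253 CPM, then 167.5, 167 and 163 CPM, then 78.9, 87.9 and 75.5 CPM. Nrf1KO libraries were above WT libraries in each condition without overlap, and Nrf1KO cells after 6 h of CFZ still had more than WT cells with DMSO. Over the 6 groups Ccnd1 had the widest span of the 8 tested genes, 6.34-fold between Nrf1KO DMSO and WT CFZ 24 h.

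Ccnd1 fell to 0.630 of its DMSO level at 6 h and to 0.273 at 24 h in WT cells (log2 -0.67 and -1.87, adjusted p = 1.7e-13 and 2.3e-24). In Nrf1KO cells the same ratios were 0.640 and 0.312 (log2 -0.64 and -1.68, adjusted p = 7e-14 and 6e-25). Nrf1KO cells had 1.74 times the WT level with DMSO (log2 0.80, SE 0.044, adjusted p = 6.2e-16), 1.76 times at 6 h and 1.98 times at 24 h. Of the exonic bases of Ccnd1, 23.4% are exonic in LTO1 on the opposite strand. That gene, listed as Oraov1, was at 17.7 ± 1.27 CPM in WT DMSO and 34.1 ± 2.34 CPM in WT CFZ 24 h (SD, n = 3), and at 18.1 ± 0.478 and 33.1 ± 3.07 CPM in Nrf1KO cells, where Ccnd1 moved the other way. Its part in the Ccnd1 counts was not tested.

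Ccnd2 encodes cyclin D2, at chr6:127125162-127152193 on the minus strand. Its WT levels were 440, 434.5 and 445 CPM with DMSO, 337, 333 and 321.5 CPM after 6 h of CFZ, and 203, 202 and 210.2 CPM after 24 h. Its Nrf1KO levels were 455.5, 469.7 and 453 CPM, then 529.8, 524 and 519 CPM, then 379, 361 and 341 CPM. At 6 h all WT libraries were below, and all Nrf1KO libraries above, every DMSO library of either line. After 24 h both lines were below their DMSO levels, and all Nrf1KO libraries stayed above all WT libraries.

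At 6 h Ccnd2 fell by 0.41 on the log2 scale in WT cells (SE 0.035, adjusted p = 5e-12) and rose by 0.19 in Nrf1KO cells (SE 0.035, adjusted p = 1.3e-05). The rise was 0.08 with library size alone in place of TMM (adjusted p = 0.0446). At 24 h Ccnd2 fell by 1.10 in WT cells (adjusted p = 3.9e-23) and by 0.35 in Nrf1KO cells (adjusted p = 6.9e-11). With DMSO no difference between the lines was called (log2 0.06, SE 0.034, adjusted p = 0.12), although the ranges of the 3 libraries did not overlap and library size alone gave a call (0.11, adjusted p = 0.00895). Opposite-strand genes cover 7.86% of its exonic bases, and the counted member of these, 9330179D12Rik, was at 1.30 CPM or less in every library.

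Ccnd3 encodes cyclin D3, at chr17:47505051-47599691 on the plus strand. It was at 65.2, 66.5 and 66.3 CPM in WT cells with DMSO, at 36.2, 37.0 and 38.9 CPM after 6 h of CFZ, and at 26.4, 25.4 and 26.1 CPM after 24 h. In Nrf1KO cells it was at 77.1, 77.2 and 74.7 CPM, then at 54.5, 56.4 and 57.2 CPM, then at 29.5, 30.4 and 30.2 CPM. Nrf1KO libraries were higher than WT libraries in each condition, with the largest gap at 6 h. The log2 fold change at 6 h was -0.82 in WT (SE 0.043, adjusted p = 3.3e-17) and -0.45 in Nrf1KO cells (SE 0.040, adjusted p = 2.3e-11). By 24 h it was -1.35 and -1.34 (adjusted p = 8.9e-23 and 9.8e-24). Of the exonic bases of Ccnd3, 4.11% are exonic in Bysl on the opposite strand. Bysl was at 41.8 ± 1.14 CPM in WT DMSO and 50.1 ± 0.861 CPM in WT CFZ 24 h (SD, n = 3). In Nrf1KO cells it was at 48.4 ± 1.95 and 58.1 ± 1.57 CPM, and its part in the Ccnd3 counts was not tested.

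Cdk4, the gene of the kinase that D-type cyclins bind, lies at chr10:127063534-127067920 on the plus strand. Its WT levels were 353.5, 349 and 356 CPM with DMSO, 256, 253 and 251 CPM after 6 h of CFZ, and 219, 216 and 216 CPM after 24 h. Its Nrf1KO levels were 368, 378 and 394 CPM, then 261, 275 and 253 CPM, then 291, 293.5 and 313 CPM. The lines overlapped at 6 h only. WT cells went down further from 6 h to 24 h (log2 -0.22, SE 0.036, adjusted p = 2.3e-06), whereas Nrf1KO cells came back up (log2 0.18, SE 0.036, adjusted p = 3.2e-05). Against DMSO, Cdk4 fell by 0.48 and 0.70 on the log2 scale in WT cells at 6 h and 24 h (adjusted p = 1.7e-13 and 4.6e-18). In Nrf1KO cells it fell by 0.53 and 0.35 (adjusted p = 1.9e-14 and 7.7e-11).

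The difference between the lines with DMSO was small for Cdk4 (log2 0.11, SE 0.034, adjusted p = 0.0080), and without Nrf1KO DMSO replicate 3 it was 0.08 and no longer called (adjusted p = 0.0676). At 6 h it was 0.06 and not called (SE 0.036, adjusted p = 0.19), except with library size alone (0.12, adjusted p = 0.00478) and with upper-quartile scaling (0.10, adjusted p = 0.0174). At 24 h it was 0.46 (SE 0.036, adjusted p = 5.4e-13). Tspan31, whose exons cover 19.7% of the exonic bases of Cdk4 on the opposite strand, was at 124.5 ± 3.44 CPM in WT DMSO and 153 ± 2.78 CPM in WT CFZ 24 h (SD, n = 3). In Nrf1KO cells it was at 118 ± 2.51 and 154 ± 7.63 CPM, so that it was higher at 24 h in both lines, where Cdk4 was lower than with DMSO. Its part in the Cdk4 counts was not tested.

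The window before the Cdk4 start is shown because it held more E-boxes, the CACGTG element bound by Myc and related factors, than any other window of these genes. Capitals mark the E-boxes, a Sp1 box and 2 antioxidant response element cores.
Cdk4, chr10:127063285-127063534, plus strand: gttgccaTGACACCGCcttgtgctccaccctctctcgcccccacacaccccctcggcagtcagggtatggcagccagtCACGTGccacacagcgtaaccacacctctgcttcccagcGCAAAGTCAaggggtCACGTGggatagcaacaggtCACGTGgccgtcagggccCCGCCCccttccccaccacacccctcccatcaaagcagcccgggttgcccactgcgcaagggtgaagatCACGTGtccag
It held 4 E-boxes, at 172, 118, 98 and 11 bases before the start. At least 1 E-box was in 7.15% of the 32851 windows of all genes and 4 or more were in 8 windows (0.0244%), a count made after this window had been seen. The element core of the antioxidant response, the kind of site that Nrf1 and its relatives bind, was in 12.4% of all windows and in 4 of the 10 windows of these genes, those of Cdk4, Cdkn1b, the downstream start of Cdkn1a and the upstream start of Ccnd3. These are letters only, and nothing was measured about binding.

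Cdk6, whose product shares the cyclin partners of CDK4, lies at chr5:3341485-3531008 on the plus strand. It was the tested gene that changed least, with a span of 1.35-fold over the 6 group means. In WT cells it was at 31.4, 33.1 and 31.0 CPM with DMSO, at 32.2, 29.4 and 32.1 CPM after 6 h of CFZ, and at 24.5, 23.9 and 25.4 CPM after 24 h. The Nrf1KO libraries held 31.3, 29.2 and 30.5 CPM, then 34.2, 33.0 and 32.1 CPM, then 30.1, 24.7 and 24.2 CPM. Neighbouring groups in the order of the means overlapped throughout, and Nrf1KO CFZ 24 h replicate 1 stood above the other libraries of its group. No change was called at 6 h in WT (log2 -0.03, SE 0.063, adjusted p = 0.70) or in Nrf1KO cells (log2 0.13, SE 0.064, adjusted p = 0.068), while Cdk6 fell by 0.37 and 0.21 at 24 h (adjusted p = 5.9e-06 and 0.0028). The WT change at 6 h was called with library size alone (-0.16, adjusted p = 0.0245) and with upper-quartile scaling (-0.14, adjusted p = 0.046), and the Nrf1KO change at 6 h in a fit of these groups alone (0.13, adjusted p = 0.0417).

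From 6 h to 24 h of CFZ, all 8 tested genes fell in WT cells, where 36.9% of all genes rose and 35.4% fell between these times. In Nrf1KO cells 1 gene rose (Cdk4), 6 fell and Cdkn1a was not called, beside 38.7% of all genes higher and 38.3% lower. The steepest fall between these times was that of Ccnd1, with log2 -1.21 in WT (SE 0.059, adjusted p = 5e-18) and -1.04 in Nrf1KO cells (SE 0.050, adjusted p = 2.6e-18). Ccnd3 followed in Nrf1KO cells with -0.90 (adjusted p = 1.9e-17), against -0.53 in WT cells (adjusted p = 1.1e-10). The medians of the 8 genes were -0.38 in WT and -0.44 in Nrf1KO cells.

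Set against WT cells with DMSO, Nrf1KO cells had more RNA of 3 of the 8 genes (Ccnd1, Ccnd3 and Cdk4) and less of 2 (Cdkn1a and Cdkn1b), where 25.7% of all genes were higher and 29.1% lower. After 6 h of CFZ 5 were higher and 0 lower, beside 30.5% and 30.8% of all genes. The 5 were Cdkn1a, Cdkn1b, Ccnd1, Ccnd2 and Ccnd3, with log2 differences of 0.19 to 0.82. After 24 h 6 were higher, Cdk4 being added to these 5, and Cdkn2c was lower (log2 -0.35, SE 0.066, adjusted p = 2e-05), beside 35.6% and 36.4% of all genes. None of the differences between the lines reached 2-fold.

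The difference between the lines in the response itself was tested as the interaction of genotype and CFZ, in which a positive value means that Nrf1KO cells rose more or fell less than WT cells. At 6 h 4 of the 8 genes had a positive and 0 a negative interaction, beside 19.8% and 18.4% of all genes, and at 24 h 5 were positive and 1 negative, beside 29.7% and 30.0%. The largest was that of Cdkn1a, 0.81 at 6 h (SE 0.047, adjusted p = 4.4e-15) and 1.21 at 24 h (SE 0.047, adjusted p = 5.8e-20). Ccnd2 followed with 0.60 (SE 0.049, adjusted p = 1.4e-11) and 0.75 (SE 0.050, adjusted p = 3.4e-14), and Cdkn1b with 0.39 and 0.35 (adjusted p = 9.3e-07 and 2e-06). For Ccnd3 the 6 h value, 0.37, was called (adjusted p = 6.6e-06) and the 24 h value, 0.01, was not (SE 0.063, adjusted p = 0.95). Cdk4 had -0.05 at 6 h (SE 0.050, adjusted p = 0.43) and 0.35 at 24 h (adjusted p = 3.1e-07).

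Cdkn2c was the gene with a negative interaction, -0.45 at 24 h (SE 0.080, adjusted p = 1.6e-05), after -0.07 at 6 h (SE 0.076, adjusted p = 0.50). For Ccnd1, the cyclin that differed most between the lines in level, the interaction was 0.02 at 6 h (SE 0.067, adjusted p = 0.82) and 0.19 at 24 h (SE 0.074, adjusted p = 0.026). The latter was 0.12 with library size alone (adjusted p = 0.189), and it was not called without WT DMSO replicate 2 (0.15), WT CFZ 24 h replicate 2 (0.13), Nrf1KO DMSO replicate 3 (0.17) or Nrf1KO CFZ 24 h replicate 2 (0.12). For Cdk6 it was 0.16 at both times (SE 0.090 and 0.091, adjusted p = 0.17 and 0.13).

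**Figure D3:**
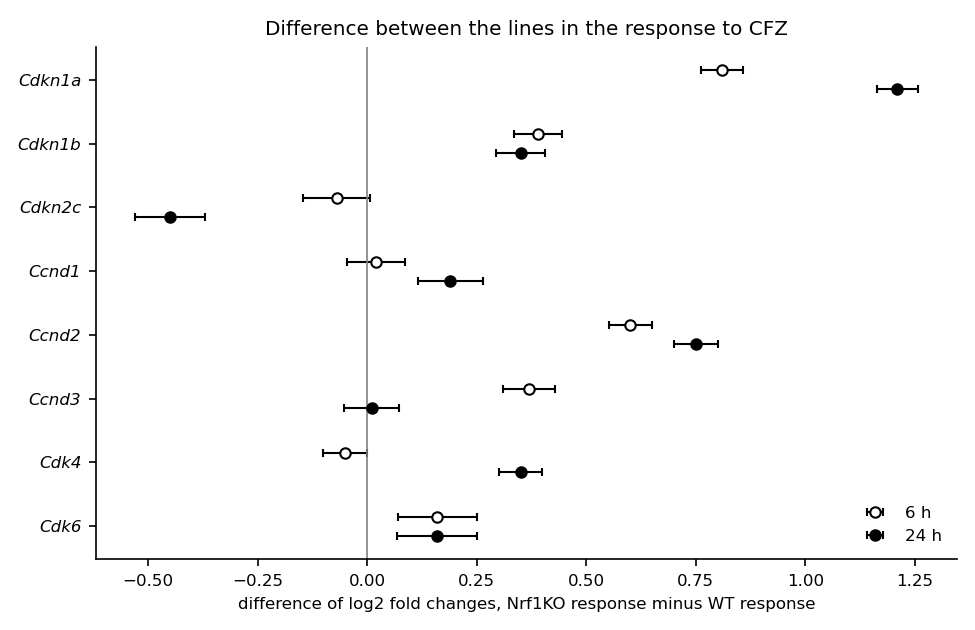
Difference between the log2 fold changes of CFZ against DMSO in Nrf1KO and in WT cells (horizontal axis) for the 8 tested genes, open points at 6 h and filled points at 24 h, with bars of ± 1 standard error. Cdkn1a (0.81 and 1.21) and Ccnd2 (0.60 and 0.75) lie farthest to the right, and Cdkn2c at 24 h (-0.45) to the left.

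To compare levels between genes, CPM were divided by the length of the principal transcript in kilobases. With DMSO, the tested inhibitors had 60.3 ± 0.61 (Cdkn1a), 33.3 ± 1.0 (Cdkn1b) and 38.7 ± 0.73 (Cdkn2c) CPM per kilobase in WT cells (SD, n = 3). Cdkn1a thus made up 45.6% of their sum in WT and 38.1% in Nrf1KO cells. After 24 h of CFZ its share was 73.5% in WT and 83.0% in Nrf1KO cells, while that of Cdkn2c went from 29.3% to 13.3% and from 36.4% to 7.05%. The sum of the 3 inhibitors was 132 ± 1.8 CPM per kilobase in WT cells with DMSO, 134 ± 4.4 at 6 h and 104 ± 2.2 at 24 h, and in Nrf1KO cells 114 ± 2.8, 162 ± 0.64 and 153 ± 2.7. With the length of all annotated exons in place of the principal transcript, the share of Cdkn1a in WT DMSO was 33.9% and the 3 levels were 35.3, 33.3 and 35.6 CPM per kilobase, so that their order with DMSO depends on the length used. By that length the 3 levels in WT cells at 6 h were 58.4, 16.2 and 16.4 CPM per kilobase, so that their sum fell from DMSO to 6 h. The course of the sum with CFZ thus depends on the length used as well.

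The summed D-type cyclins went from 141 ± 2.5 CPM per kilobase with DMSO to 95.1 ± 0.75 at 6 h and 55.6 ± 1.5 at 24 h of CFZ in WT cells. In Nrf1KO cells the sum went from 178 ± 3.2 to 154 ± 0.97 and 92.7 ± 3.8. By this length Ccnd2 was the largest part of the sum in each group, from 49.4% with DMSO to 58.2% at 24 h in WT cells and from 40.7% to 61.4% in Nrf1KO cells, where Ccnd1 fell from 39.0% to 23.3%. By the length of all annotated exons, Ccnd1 was the larger part in Nrf1KO DMSO, with 48.9% against 43.3% for Ccnd2. Ccnd3 was 22.2% of the sum in WT DMSO by the principal transcript and 8.74% by all annotated exons, since the exons annotated for it add up to 8775 bases against 2113 in its principal transcript. Cdk4 was the main kinase RNA, at 172 ± 1.9 CPM per kilobase in WT and 185 ± 6.3 in Nrf1KO cells with DMSO. Cdk6 was 1.40% to 2.20% of the sum of Cdk4 and Cdk6 over the 6 groups.

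**Figure D4:**
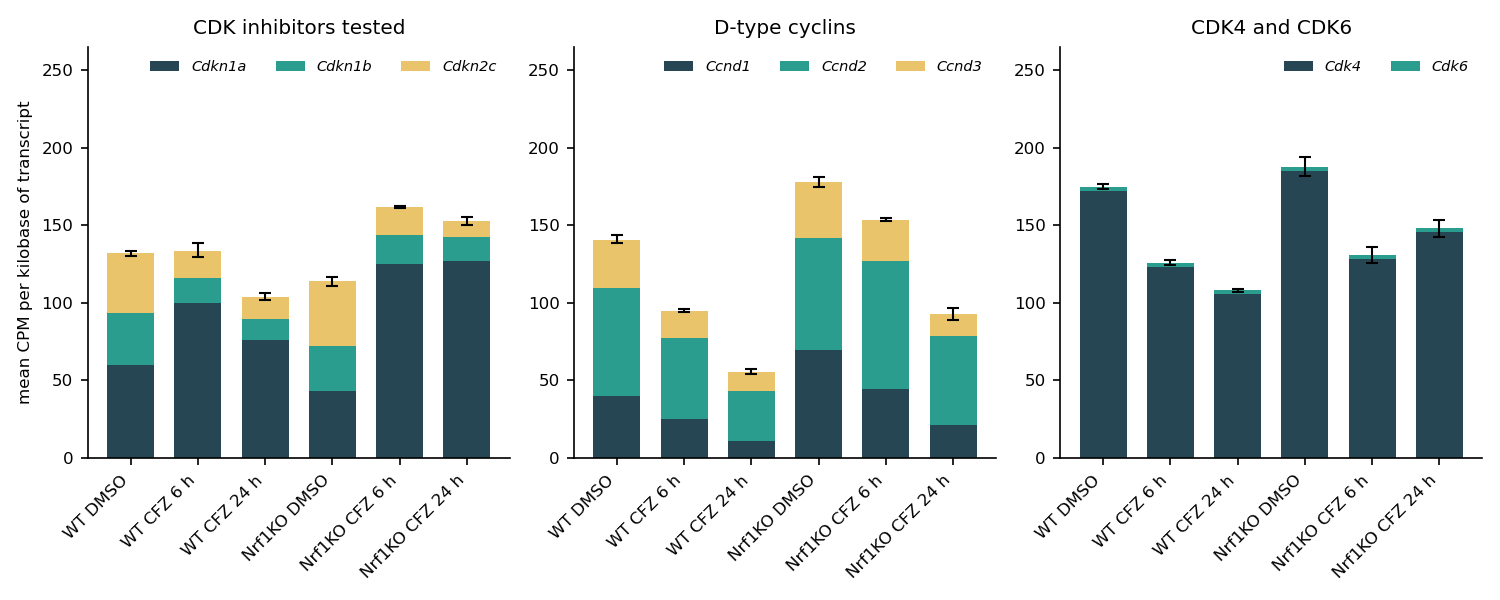
Mean CPM per kilobase of principal transcript (vertical axis, from 0) of the tested inhibitors, the D-type cyclins and the kinases in the 6 groups, stacked by gene, with bars of ± 1 SD of the sum over 3 libraries. The cyclin sum is lowest in WT CFZ 24 h (55.6), the Cdkn1a part of the inhibitors grows with CFZ in both lines, and Cdk6 is a thin strip on top of Cdk4.

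Across the 18 libraries, which share 6 groups and are not independent, the log2 levels of the 8 genes were set against each other in pairs. Cdkn1b and Cdkn2c had a Pearson correlation of 0.95, Ccnd1 and Ccnd3 of 0.95, and Ccnd1 and Ccnd2 of 0.91. Cdkn1a was negatively correlated with each of the other 7 genes, from -0.83 with Cdkn2c to -0.05 with Ccnd2 and with Cdk6. For 7 of the 8 genes, the genes outside the 10 whose levels were most like theirs, among the 10252 tested genes whose counts averaged 50 or more, were Them4 for Cdkn1a (0.981), Hdac5 for Cdkn1b (0.991), Iqsec1 for Cdkn2c (0.987), Slc38a4 for Ccnd1 (0.992), Slc4a2 for Ccnd2 (0.991), Tgif2 for Cdk4 (0.988) and Tcof1 for Cdk6 (0.936). These are correlations over 18 libraries of 6 groups and are given as a description.

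Genes that act around the 10 were examined as lists, each counted over its tested members. The counts at 24 h stand beside 43.2% of all tested genes higher and 40.5% lower in WT cells, and 44.4% higher and 41.1% lower in Nrf1KO cells, and no list was tested against the other genes. The inhibitors outside the 10 that passed the filter, Cdkn2d (p19, an INK4 protein) and Cdkn3 (a phosphatase that acts on CDKs), both fell at 24 h, by 1.55 and 2.09 on the log2 scale in WT cells and by 2.82 and 3.98 in Nrf1KO cells (adjusted p of 5.5e-18 and below for Cdkn3 and of 7.2e-17 and below for Cdkn2d). Of 10 later cyclins, CDKs and their phosphatases, 8 were lower and 1 was higher in WT cells at 24 h, with a median of -1.06 on the log2 scale, and 9 were lower and 1 higher in Nrf1KO cells, with a median of -2.27. Ccna2, the cyclin of S phase and G2, went from 206 ± 6.46 to 33.4 ± 1.56 CPM in WT and from 199 ± 0.899 to 6.25 ± 0.326 CPM in Nrf1KO cells (SD, n = 3), with an interaction of -2.37 (adjusted p = 4e-20). Ccnb2, the mitotic cyclin B2, had an interaction of -2.06, and Cdc25a, a phosphatase that activates CDKs, was the list member that rose, by 0.84 in WT and 0.58 in Nrf1KO cells. For this list the interaction at 24 h was negative for 9 of 10 genes and positive for 0, beside 30.0% negative and 29.7% positive over all genes.

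Of 14 E2F target genes of S phase, 13 fell and 1 rose in WT cells at 24 h (median -0.62), beside 40.5% lower and 43.2% higher over all genes, and 12 fell and 1 rose in Nrf1KO cells (median -0.83), beside 41.1% and 44.4%. Tk1, thymidine kinase, fell by 2.69 and 3.93 in WT and Nrf1KO cells. Among the 3 genes of the retinoblastoma family, Rb1 was not called in WT cells at 24 h (log2 0.06, adjusted p = 0.28) and rose by 0.67 in Nrf1KO cells (adjusted p = 3.2e-13), with an interaction of 0.61, while Rbl1, which encodes p107, fell by 1.22 and 1.36. Of the E2F and DP factors, 9 of 10 were tested, with 3 higher and 4 lower in WT cells at 24 h, near the shares over all genes, and 2 higher and 6 lower in Nrf1KO cells. E2f8, a repressor of the family, fell by 1.91 and 2.20, and E2f3 rose by 0.73 and 0.20.

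The 17 ubiquitin ligase parts and adaptors that turn over these proteins had 7 members higher and 8 lower in WT cells at 24 h, near the 43.2% and 40.5% over all genes, and 5 higher and 12 lower in Nrf1KO cells, beside 44.4% and 41.1%. Fbxo31, an F-box protein that targets cyclin D1, fell by 1.14 in WT and 1.01 in Nrf1KO cells, and Ambra1, an adaptor for D-type cyclins, rose by 0.72 and 0.69. Of the 3 parts of the CDK-activating kinase, Cdk7 rose by 0.91 and 0.45 at 24 h, and Ccnh fell by 0.34 and 0.45. Among 24 upstream regulators, 11 were higher and 13 lower in WT cells at 24 h, where the share higher was near that of all genes, and 15 were higher and 8 lower in Nrf1KO cells. Atf3, a stress-induced factor, rose by 4.09 in WT and by 7.16 in Nrf1KO cells at 24 h, from 7.97 to 136 CPM and from 3.08 to 441 CPM, with an interaction of 3.07 (adjusted p = 1.9e-18). Fosl1, an AP-1 subunit, rose by 3.40 and 1.87, with an interaction of -1.53, and Egr1, an immediate early factor, fell by 1.33 and 0.68. Mycn was at 0.456 CPM or less in the WT DMSO libraries and at 0 in the 3 WT CFZ 24 h libraries, so no fold change is given for it. Trp53, the gene of p53, and Mdm2, its target and ligase, were not picked by the rule for named genes and were looked up after their values were known, because Cdkn1a is a p53 target. Trp53 rose by 0.88 and 0.87 at 24 h in WT and Nrf1KO cells with an interaction of -0.01 (adjusted p = 0.89), and Mdm2 rose by 2.02 and 2.82 with an interaction of 0.80 (adjusted p = 3.7e-15). The part of p53, or of any other regulator listed here, in the levels of Cdkn1a was not tested.

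**Figure D5:**
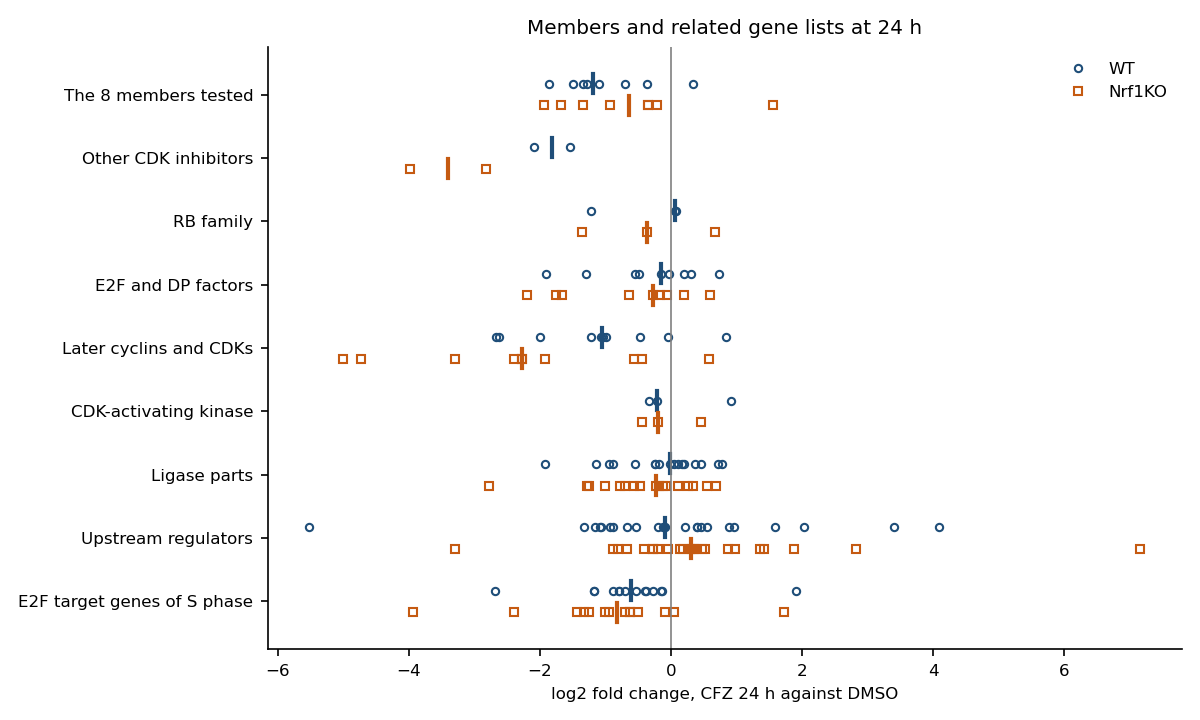
Log2 fold change of CFZ 24 h against DMSO (horizontal axis) for the 8 tested genes and for the genes of each related list, with WT cells as blue circles and Nrf1KO cells as orange squares, and the median of each list as a vertical bar. Later cyclins and CDKs have medians of -1.06 in WT and -2.27 in Nrf1KO cells, against -1.19 and -0.64 for the 8 tested genes. The leftmost WT point is the fitted value of Mycn, which had no count in that group.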

How the data were processed

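Total RNA from 18 samples of NIH-3T3 cells was made into stranded mRNA libraries, and the deposited values are whole-number counts of reads per gene, which the authors made with the RNA Express app (with STAR and DESeq2 per the submitters' processing notes; versions, genome build, annotation and the use of strand are not given in the sources used here). The 10 genes and the related lists were chosen with earlier results of these data known. Counts were scaled by TMM and filtered with filterByExpr (minimum count 10, minimum total 15), which left 11762 genes. They were fitted in 1 quasi-likelihood model of the 6 groups with edgeR 4.0.16 in R 4.3.3, from which 11 comparisons were drawn with Benjamini-Hochberg adjustment over all tested genes. The standard error is the log2 fold change divided by the square root of F. The common biological coefficient of variation was 3.13%. Coordinates and lengths are from GENCODE M21 (GRCm38), promoter windows from RefSeq (GRCm38.p6). Genes were matched to both by symbol, since the build of the counts is unknown. The named genes were the 10 members, Nfe2l1, the extremes of each list in WT cells at 24 h and in the interaction at 24 h, and the genes most like each member in pattern, some of which are not reported here. The fit was tested on simulated counts that had the same biological spread for every gene and changes in the Nrf1KO CFZ 24 h group only. That test cannot show how the fit does where the spread varies between genes or groups. Replicate libraries differed by more than sampling noise in every pair (chi-square per degree of freedom 1.438 to 8.469), and all 18 libraries correlated best with their own group. Replicate numbers are shared by the groups, but no source used here states that they pair the samples. The deviations of 45 same-numbered pairs had correlations of -0.0494 to 0.0972, against -0.103 to 0.0635 for 90 differently numbered pairs. With 3 libraries per group these values cannot exclude a weak pairing. Other scalings, DESeq2 1.42.0, other filters, fits of just the groups compared, a block for the replicate number and the omission of each library were tried as alternatives, and the length of all annotated exons was added after seeing the data.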

Additional observations from a re-analysis of the deposited data

Results flagged for a closer look

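The response to CFZ differed between Nrf1KO and WT cells, by the test of the interaction in edgeR's fit, for 4 of the 8 tested genes at 6 h. Over all tested genes, 19.8% had a positive and 18.4% a negative interaction at 6 h, and 29.7% and 30.0% at 24 h. For the 4 genes at 6 h, the differences of log2 fold changes, Nrf1KO minus WT, were 0.81 for Cdkn1a, 0.60 for Ccnd2, 0.39 for Cdkn1b and 0.37 for Ccnd3. At 24 h the response differed for 6 genes, with 1.21 for Cdkn1a, 0.75 for Ccnd2, 0.35 for Cdk4, 0.35 for Cdkn1b, 0.19 for Ccnd1 and -0.45 for Cdkn2c. The difference for Ccnd1 was 0.12 and not called with library size alone (adjusted p = 0.189), nor was it called without WT DMSO replicate 2, WT CFZ 24 h replicate 2, Nrf1KO DMSO replicate 3 or Nrf1KO CFZ 24 h replicate 2, where it was 0.12 to 0.17. For Ccnd2 at 6 h the direction itself differed, since all 3 WT libraries fell below and all 3 Nrf1KO libraries rose above their DMSO libraries. The rise in Nrf1KO cells was smaller with library size alone, where edgeR's fit gave an adjusted p of 0.0446. Genotype and cell line cannot be told apart in any of these values.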

How the results depend on the processing

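With calls limited to changes of at least 2-fold, the members called were 2 and 5 in WT cells (6 h and 24 h against DMSO), 2 and 4 in Nrf1KO cells, 1 in each line between the times, 0 between the lines with DMSO, at 6 h and at 24 h, 0 for the interaction at 6 h and 1 at 24 h. Of all tested genes, this limit kept 9.63% and 25% in WT cells and 7.56% and 26.7% in Nrf1KO cells against DMSO. Between the times it kept 12.1% in WT and 15.8% in Nrf1KO cells. Between the lines it kept 4.97% with DMSO, 7.31% at 6 h and 12.2% at 24 h. For the interaction it kept 2.78% at 6 h and 8.6% at 24 h. The other 155 counts of members under alternatives stayed within 1.5 times the reported count, with 5 to 7 members called for the interaction at 24 h when libraries were left out. Upper-quartile scaling and library size alone moved the median of all genes by -0.07 to -0.18 in CFZ against DMSO, and the share of calls that were higher at 6 h from 49.6% to 37.9% and 35.4% in WT cells. With library size alone it moved from 49.7% to 36.4% in Nrf1KO cells at 6 h, from 52.0% to 41.6% at 24 h, from 46.9% to 57.7% between the lines with DMSO and from 49.8% to 60.8% between them at 6 h.

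Of 1395 fold changes under alternatives, 1356 kept their direction and their side of the threshold, 16 gained and 7 lost a call, and 16 changed sign, of which only that of Nfe2l1 had been called. With library size alone, the changes of sign were Nfe2l1 at 24 h in Nrf1KO cells (-0.001), Cdkn1a between the times in Nrf1KO cells (-0.057) and the interaction of Ccnd3 at 24 h (-0.072). Upper-quartile scaling gave -0.022 for Cdkn1a there. With single libraries left out, values ranged from -0.011 to 0.020 for Cdkn1a there, from -0.047 to 0.021 for Cdk6 in WT cells at 6 h, from -0.021 to 0.070 for Cdkn2c between the lines at 6 h, from -0.043 to 0.041 for the interaction of Ccnd1 at 6 h, and from -0.013 to 0.016 for that of Ccnd3 at 24 h. The cause was not tested. The replicate numbers are not stated to pair the samples, and with the number as a block the counts of calls were 7, 8, 7, 8, 8, 7, 5, 5, 7, 4 and 6, as without it. With no length correction, Cdk6 was 7.39% to 11.2% of the kinase sum. The low counts of Cdkn1c and Cdkn2b limit any statement on them to the counting floor.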
